A study of Mus musculus with 24 samples.

Results

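The genes described here encode platelet-derived growth factors (PDGF), fibroblast growth factors (FGF) and their receptors, in 4 cell populations derived from EO771, a mammary carcinoma line of the mouse. The 10 genes were taken by symbol: the ligands Pdgfa, Pdgfb, Pdgfc, Fgf2 and Fgf7 and the receptors Pdgfra, Pdgfrb, Fgfr1, Fgfr2 and Fgfr3. All 10 had a row among the 55471 genes of the batch 1 count table. Only 5 of them, Pdgfa, Pdgfra, Pdgfrb, Fgfr1 and Fgfr3, had a row among the 13915 genes of the batch 2 table, which holds genes with at least 10 counts in some library. Pdgfb, Pdgfc, Fgf2, Fgf7 and Fgfr2 had no row there and are described in batch 1 only.

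X2 cells carried the empty retroviral vector pLNCX2 with tdTomato. CCR7 cells carried the same vector with a Ccr7 cDNA and were sorted as PDPN-negative, and CCR7-PDPN cells were the PDPN-positive sort of these Ccr7-transduced cells. X2-PDPN cells were vector cells sorted for podoplanin (PDPN) that had appeared on their surface without a transgene for it. Every derivative therefore carried a retroviral vector and tdTomato, none was a selected clone, and each was 1 sorted population in culture. The libraries of batch 1 came from X2, CCR7 and CCR7-PDPN, those of batch 2 from X2, X2-PDPN and CCR7-PDPN, with 4 of each. The 4 libraries were technical replicates, so p-values measure the spread between libraries of 1 population and not between populations made separately. Groups were compared within a batch.

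PDGF ligands are dimers that bind a pair of receptor tyrosine kinases: PDGF-A binds PDGFRα, PDGF-B binds both PDGFRα and PDGFRβ, and PDGF-C binds mainly PDGFRα once a protease has cut off its CUB domain. Most FGF ligands bind FGF receptors together with heparan sulfate, whereas the endocrine members need a Klotho protein. In many tissues PDGFRα, PDGFRβ and FGFR1 are typical of mesenchymal cells. FGFR2 in its epithelial splice form receives FGF7 made by the surrounding mesenchyme.

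The libraries held 22275468 to 33395418 counts in batch 1 and 22788542 to 35721027 counts in batch 2. The transduced gene and the sorted marker followed the labels. Ccr7 averaged 5311 to 5911 TPM (counts per exonic length, scaled to the same sum in every library) in the 3 Ccr7-transduced groups and 0.644 to 1.25 TPM in the other 3. Pdpn averaged 49.9 to 52.9 TPM in the 3 PDPN-sorted groups and 0.128 to 0.853 TPM elsewhere. Of 9 fixed markers of mammary carcinoma cells, 3 reached 1 TPM in some group: Vim with group means of 1848 to 2340 TPM, Krt8 with 425 to 560.0 TPM and Krt7 with at most 1.18 TPM. The epithelial markers Epcam, Cdh1, Krt18, Krt19, Krt5 and Krt14 stayed below 1 TPM in the 3 groups of batch 1 and had no row in batch 2, so an epithelial identity rested on Krt8 in these counts. Thy1, Lum and Cd3e had 0 counts in all batch 1 libraries, and Ptprc had at most 4 counts in any of them. The endothelial markers Cdh5, Lyve1, Pecam1 and Vwf stayed below 1 TPM in all 6 group means, and Kdr, Tek and Emcn did so in the 3 of batch 1 and had no row in batch 2. Summed over 9 fibroblast markers the lowest and highest library were 35.2 and 178 TPM, mostly S100a4. In bulk RNA, fewer cells expressing a gene and less RNA per cell cannot be told apart.

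The sequence before the transcription start was compared for the members with an entry in the set of RefSeq windows (GRCm38.p6) used here, which 7 of the 10 had. Pdgfb, Pdgfrb and Fgfr1 had no entry in that set, which does not mean that RefSeq lacks them. The window ran from 250 to 51 bases before the start. The motif searched was the GC box GGGCGG, or CCGCCC on the other strand, and no other motif was searched. It was found in 24.6% of the 32851 windows in the table. The windows of Fgfr3 and Pdgfra are shown, 5′ to 3′, because they belong to the receptor at the lowest testable level and to a receptor at a high level, and matches are in capitals. Both lie on the plus strand. The window of Fgfr3, chr5:33721474-33721673, is 65% G or C and has 2 matches; its other window in the table, chr5:33722056-33722255, is 74.5% G or C and also has 2. That of Pdgfra, chr5:75152001-75152200, is 56.5% G or C and has 0.
Fgfr3: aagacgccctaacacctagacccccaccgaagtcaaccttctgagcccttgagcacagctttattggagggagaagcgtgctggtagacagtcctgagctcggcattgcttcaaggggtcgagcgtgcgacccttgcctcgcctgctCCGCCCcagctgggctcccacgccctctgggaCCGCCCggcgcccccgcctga
Pdgfra: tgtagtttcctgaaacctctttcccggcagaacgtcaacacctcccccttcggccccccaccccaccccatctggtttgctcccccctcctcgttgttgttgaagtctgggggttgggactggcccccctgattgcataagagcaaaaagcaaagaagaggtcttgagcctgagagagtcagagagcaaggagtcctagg
A match is a description of the letters only. Of the other members with an entry, Pdgfa had 1 match in the first and 2 in the other of its 2 windows, and Fgf2, Fgf7, Pdgfc and Fgfr2 had 0 in theirs.

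Levels per length fell into 2 ranges. Pdgfa, Fgfr1, Pdgfra and Pdgfrb were between 38.0 and 121 TPM in every group mean, and the other 6 members were below 1 TPM, 5 of them measured in batch 1 only. A level of 1 TPM was taken here as the limit of noise. In X2 of batch 1 the order was Pdgfa (100.3 ± 2.18 TPM, SD, n = 4), Fgfr1 (82.7 ± 1.54), Pdgfra (58.4 ± 0.876), Pdgfrb (46.6 ± 0.595) and, far below, Fgfr3 (0.441 ± 0.0284). The 4 libraries of neighbouring genes in this order did not overlap. In CCR7-PDPN the top of the order was turned: Fgfr1 was at 116 ± 2.26 TPM in batch 1 and 121 ± 3.92 TPM in batch 2, against 109.5 ± 2.94 and 116 ± 0.92 TPM for Pdgfa. The libraries of the 2 genes overlapped there in both batches, with Fgfr1 at 112.5 to 117.1 and Pdgfa at 105.9 to 112.6 TPM in batch 1, and 115 to 124 against 115 to 117 TPM in batch 2.

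**Figure D1:**
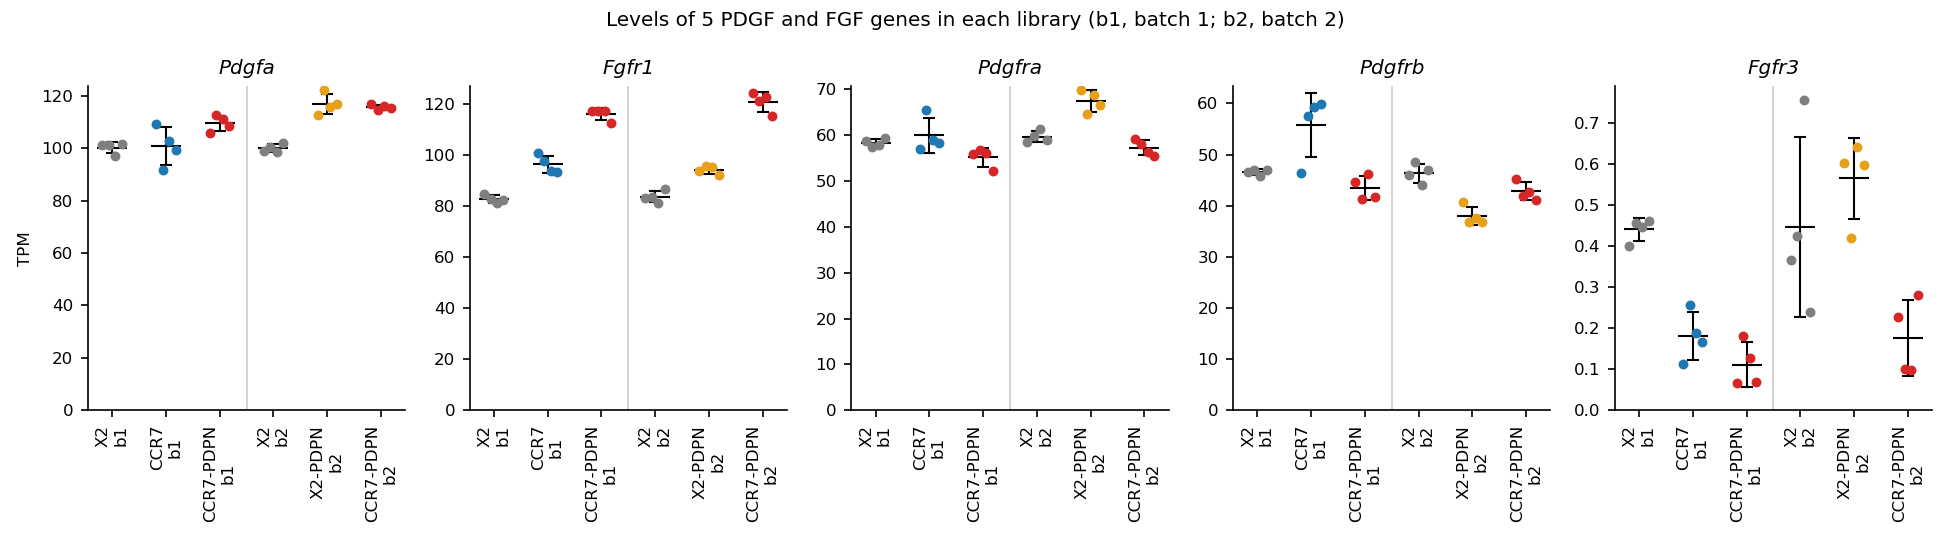
TPM of Pdgfa, Fgfr1, Pdgfra, Pdgfrb and Fgfr3 in each of the 24 libraries (vertical axes start at 0 and differ between panels), with the mean as a bar and the SD of 4 libraries as whiskers. Fgfr1 stands at 82.7 and 83.6 TPM in X2 and at 116 and 121 TPM in CCR7-PDPN, while Fgfr3 stays below 1 TPM in every library.

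Among the ligands, Pdgfa (ENSMUSG00000025856, chromosome 5, 138976014 to 138997370, minus strand of GRCm38) was the only member ligand above 1 TPM where the ligands were measured. Its 4 libraries held 101, 101, 97.0 and 102 TPM in X2, 109, 91.9, 103 and 99.5 TPM in CCR7 and 106, 113, 111 and 108 TPM in CCR7-PDPN of batch 1. In batch 2 they held 98.9, 100.4, 98.7 and 102 TPM in X2, 113, 122, 116 and 117 TPM in X2-PDPN and 117, 115, 116 and 115 TPM in CCR7-PDPN. Both PDPN-sorted groups lay above every X2 library of their batch, and the CCR7 libraries spread across the range of X2. By the quasi-likelihood test of edgeR, adjusted by Benjamini-Hochberg over all genes tested, the log2 fold change of X2-PDPN against X2 was 0.22 (SE 0.03, adjusted p = 8.9e-08) and that of CCR7-PDPN against X2 was 0.15 (SE 0.04, adjusted p = 0.0045) in batch 1 and 0.23 (SE 0.03, adjusted p = 2.8e-08) in batch 2. CCR7-PDPN against CCR7 gave 0.14 (SE 0.04, adjusted p = 0.010). Against these, CCR7 against X2 gave 0.0069 (SE 0.04, adjusted p = 0.91) and CCR7-PDPN against X2-PDPN gave 0.0096 (SE 0.03, adjusted p = 0.81). The differences with PDPN amounted to 10.5% to 17.3% and did not reach the threshold of a doubling that the study's methods set. A doubling is written below as a log2 fold change of 1. Exons of Pdgfa share 813 bases with 6330403L08Rik on the opposite strand, which had 191 to 416 counts in batch 1, and whether strand was used in counting is not given in the sources used here.

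The ligands PDGF-B, PDGF-C, FGF2 and FGF7 were near the limit of detection. In batch 1, Fgf2, a heparin-binding growth factor of wide use, had 4, 5, 6 and 3 counts in X2, 7, 6, 9 and 7 in CCR7 and 6, 8, 3 and 3 in CCR7-PDPN. Pdgfb had 1, 3, 5 and 1 counts in X2, 10, 4, 4 and 3 in CCR7 and 3, 1, 5 and 0 in CCR7-PDPN. The groups of Pdgfb overlapped, and for Fgf2 the lowest CCR7 library equalled the highest X2 library. Exons of Fgf2 share 640 bases with Nudt6 on the opposite strand, which had 54 to 128 counts in batch 1. Since the strand setting of the counting is not given, the part of Nudt6 reads in the Fgf2 counts is not known. Pdgfc had at most 2 counts and Fgf7, the ligand of epithelial FGFR2, at most 3 counts in any of the 12 libraries. A count of 0 allows up to 3 counts, or 0.0898 to 0.135 CPM (counts scaled to the library total) in these libraries (counting error only). With no filter on low counts the smallest adjusted p of these 4 ligands and Fgfr2 was 0.30 in CCR7 against X2, 0.21 in CCR7-PDPN against CCR7 and 0.75 in CCR7-PDPN against X2, so no difference was detectable at this depth.

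Fgfr2 (ENSMUSG00000030849, chromosome 7), the receptor that receives FGF7 in epithelia, had 4 counts in the 12 libraries of batch 1 together and no more than 1 in any library. Its annotated exons share 314 bases with Ctbp2 on the same strand. The 5 members without a row in batch 2 lie on chromosomes 15 (Pdgfb, 79995874 to 80014977), 3 (Pdgfc, 81036416 to 81214040, and Fgf2, 37348346 to 37410108), 2 (Fgf7, 126034658 to 126091185) and 7 (Fgfr2, 130162451 to 133123350).

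**Figure D2:**
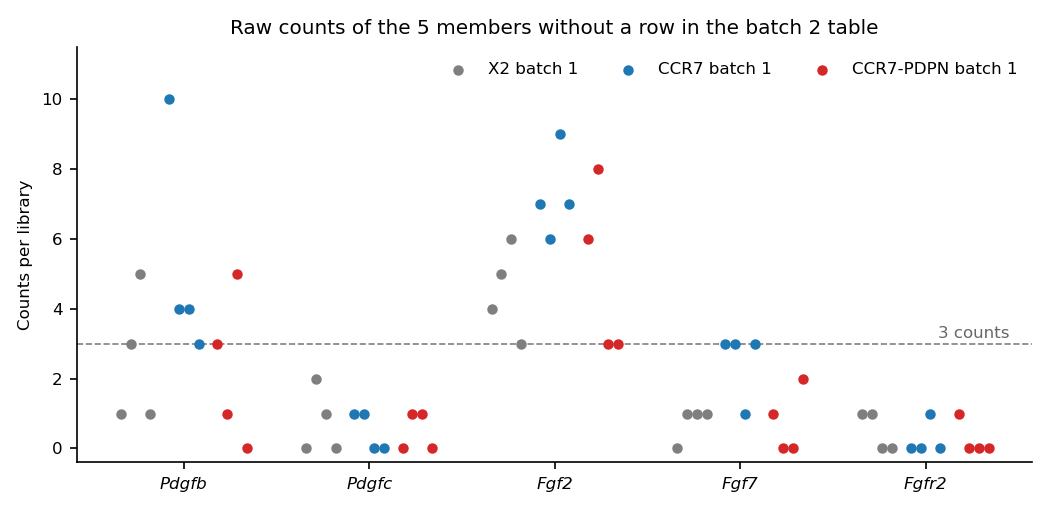
Raw counts in each of the 12 libraries of batch 1 for the 5 members without a row in the batch 2 table, with a dashed line at 3 counts, the limit that a count of 0 allows. Fgf2 has 3 to 9 counts and Pdgfb 0 to 10, and Pdgfc, Fgf7 and Fgfr2 do not exceed 3 counts in any library.

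Fgfr1 (ENSMUSG00000031565, chromosome 8, 25513654 to 25575718, plus strand), the FGF receptor of mesenchymal cells, was the only member that was higher in all 6 comparisons by the adjusted p. It held 84.7, 82.7, 81.0 and 82.3 TPM in X2, 101, 97.6, 93.5 and 93.3 TPM in CCR7 and 117, 117, 117 and 113 TPM in CCR7-PDPN of batch 1. In batch 2 it held 83.2, 83.5, 81.1 and 86.5 TPM in X2, 93.5, 95.5, 95.2 and 92.0 TPM in X2-PDPN and 124, 121, 123 and 115 TPM in CCR7-PDPN. The groups formed 3 steps in each batch with no overlap between neighbouring steps. The log2 fold change was 0.22 (SE 0.03, adjusted p = 5.5e-06) for CCR7 against X2 and 0.29 (SE 0.03, adjusted p = 1.9e-07) for CCR7-PDPN against CCR7. In batch 2 it was 0.16 (SE 0.03, adjusted p = 2.3e-06) for X2-PDPN against X2 and 0.39 (SE 0.03, adjusted p = 2.4e-16) for CCR7-PDPN against X2-PDPN. The comparison that spans both steps, CCR7-PDPN against X2, gave 0.51 (adjusted p = 5.8e-12) in batch 1 and 0.55 (adjusted p = 1.0e-21) in batch 2, or 42.5% and 46.6% more, still below a doubling. Leaving out any single library kept this comparison between 0.50 and 0.57.

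The genes around Fgfr1 moved the other way against X2. The median log2 fold change of the 55 tested genes within 5 Mb was -0.28 for CCR7 against X2, -0.29 and -0.29 for CCR7-PDPN against X2 in batches 1 and 2 and -0.26 for X2-PDPN against X2. Between Ccr7-transduced or PDPN-sorted groups it was -0.0073 for CCR7-PDPN against CCR7 and -0.026 for CCR7-PDPN against X2-PDPN. With the neighbours' median subtracted, the value of Fgfr1 was 0.49 for CCR7 against X2, 0.80 and 0.84 for CCR7-PDPN against X2 and 0.42 for X2-PDPN against X2. The part of the neighbouring genes in the Fgfr1 values was not tested.

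Fgfr3 (ENSMUSG00000054252, chromosome 5, 33721674 to 33737068, plus strand), a receptor of epithelia and cartilage, was the only member past both thresholds in any comparison, and it was so on few counts. In batch 1 the libraries held 22, 21, 27 and 26 counts in X2, 7, 14, 12 and 7 in CCR7 and 4, 11, 7 and 4 in CCR7-PDPN. In batch 2 they held 19, 23, 44 and 14 counts in X2, 35, 29, 36 and 31 in X2-PDPN and 10, 6, 6 and 15 in CCR7-PDPN. Per length this was 0.441 ± 0.0284 and 0.447 ± 0.22 TPM in the X2 groups, 0.565 ± 0.0993 TPM in X2-PDPN and 0.111 ± 0.0553 to 0.181 ± 0.0592 TPM in the 3 Ccr7-transduced groups (SD, n = 4 each). The Ccr7-transduced groups were thus low in both batches, with or without PDPN, and the 2 groups without Ccr7 were high, with overlap between X2 and CCR7-PDPN in batch 2.

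Fgfr3 was lower in CCR7 against X2 (log2 fold change -1.28, SE 0.28, adjusted p = 7.3e-04), in CCR7-PDPN against X2 of batch 1 (-1.95, SE 0.31, adjusted p = 1.4e-05), in CCR7-PDPN against X2-PDPN (-1.68, SE 0.33, adjusted p = 4.3e-05) and in CCR7-PDPN against X2 of batch 2 (-1.37, SE 0.35, adjusted p = 9.0e-04). The last of these rested on X2 replicate 3 of batch 2, which had the highest count: without it the value was -0.98, which no longer reaches the fold threshold. The PDPN sort gave -0.67 (SE 0.37, adjusted p = 0.16) with Ccr7 and 0.31 (SE 0.27, adjusted p = 0.34) without it. Leaving out 1 library at a time moved the first to between -1.02 and -0.45 and the second to between 0.096 and 0.70, the highest without X2 replicate 3 of batch 2 (adjusted p = 0.032). In both batches Fgfr3 passed the filter on low counts through libraries without Ccr7, which are also the high groups, so its lower values are a description. At a filter of 1 CPM in 4 libraries it was not tested in batch 1. The genes within 5 Mb had medians between -0.025 and 0.059 in the 6 comparisons.

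Over the 24 libraries and the 10532 genes in both batches whose log2 CPM averaged 1 or more, the genes most like Fgfr3 were Otud7b (Pearson's r = 0.905), Lrrc8b (0.899) and Atg14 (0.894). The libraries share depth, batch and group structure, so these correlations are descriptions.

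Pdgfra (ENSMUSG00000029231, chromosome 5, 75152292 to 75198215, plus strand), the receptor of PDGF-A, was highest in X2-PDPN. Its libraries held 58.8, 57.4, 57.9 and 59.4 TPM in X2, 57.1, 65.6, 59.0 and 58.3 TPM in CCR7 and 55.9, 56.8, 56.1 and 52.1 TPM in CCR7-PDPN of batch 1. In batch 2 they held 58.6, 59.8, 61.4 and 59.0 TPM in X2, 69.9, 64.6, 68.8 and 66.7 TPM in X2-PDPN and 59.1, 58.0, 56.4 and 55.5 TPM in CCR7-PDPN. All 4 X2-PDPN libraries lay above every other library of their batch. In batch 1 the CCR7-PDPN libraries lay just below those of X2 and CCR7 in TPM, while X2 and CCR7 overlapped. On the scaled log2 CPM of the tests, CCR7-PDPN overlapped both X2 and CCR7. The log2 fold change was 0.17 (SE 0.03, adjusted p = 1.4e-06) for X2-PDPN against X2 and -0.21 (SE 0.03, adjusted p = 1.5e-08) for CCR7-PDPN against X2-PDPN. The other 4 comparisons lay between -0.094 and 0.036 with adjusted p from 0.054 to 0.45. The lowest of them, CCR7-PDPN against CCR7, stayed between -0.11 and -0.049 with 1 library left out, at adjusted p from 0.0079 to 0.26. Its adjusted p was 0.039 with upper-quartile factors, 0.040 at 1 CPM in 4 libraries and 0.014 with 24 libraries and a batch term. The adjusted p thus lay on either side of 0.05, so no difference is claimed. CCR7 against X2 gave -0.0093 without CCR7 replicate 2, so it is not given a direction.

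Fibroblasts and pericytes are the usual carriers of Pdgfra and Pdgfrb. The summed levels of their fixed markers, mostly S100a4 and Acta2, were highest in X2-PDPN, as Pdgfra was, although Des was not. Pdgfrb was instead lowest in X2-PDPN. The summed level of the 9 fibroblast markers was 167 to 178 TPM in X2-PDPN against 41.3 to 44.9 in X2 and 69.5 to 79.7 in CCR7-PDPN of batch 2. In batch 1 it was 35.2 to 39.6 in X2, 38.0 to 46.4 in CCR7 and 60.0 to 70.5 TPM in CCR7-PDPN. Of the 9 markers, 3 reached 1 TPM in some group (S100a4, Col1a1 and Pi16), 2 (Thy1 and Lum) were at 0 counts in every batch 1 library, and Dcn, Fap and Col1a2 had at most 3 counts in any of these 12; none of the last 5 had a row in batch 2. The summed level of 8 pericyte and smooth muscle markers was 116 to 121 TPM in X2-PDPN, 65.8 to 68.1 in X2 and 34.5 to 38.0 in CCR7-PDPN of batch 2, and 56.6 to 65.5 TPM in CCR7, 65.1 to 72.8 in X2 and 34.3 to 37.1 in CCR7-PDPN of batch 1. Of these 8, Acta2, Des and Mcam reached 1 TPM, whereas the pericyte markers Rgs5, Kcnj8, Abcc9 and Notch3 had at most 1 count in any batch 1 library and no row in batch 2. Of 7 leukocyte markers, Cd68 (26.0 to 141 TPM over group means), Lyz2 (1.60 to 21.4 TPM) and Cd79a (1.27 to 8.32 TPM) reached 1 TPM, and Ptprc, Cd3e, Itgam and Adgre1 were below 1 TPM in batch 1 with no row in batch 2. In batch 1 their summed level was highest in X2 (151 to 178 TPM), lower in CCR7 (52.1 to 69.8 TPM) and lowest in CCR7-PDPN (35.4 to 40.8 TPM), and in batch 2 it was 156 to 168 TPM in X2, 80.1 to 92.6 in X2-PDPN and 32.0 to 39.3 in CCR7-PDPN. This sum, mostly Cd68, was thus lower in both batches where Fgfr1 was higher. Cd79a went the other way, with its highest group mean in CCR7-PDPN of batch 1. The part of these 3 marker lists in the member values was not tested.

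Pdgfrb (ENSMUSG00000024620, chromosome 18, 61045150 to 61085061, plus strand), the receptor of PDGF-B, was highest in CCR7 and lowest in X2-PDPN. It held 46.5, 47.0, 45.8 and 47.1 TPM in X2, 46.4, 57.5, 59.3 and 59.9 TPM in CCR7 and 44.5, 41.2, 46.2 and 41.6 TPM in CCR7-PDPN of batch 1. In batch 2 it held 45.9, 48.6, 44.1 and 46.9 TPM in X2, 40.7, 36.8, 37.7 and 36.8 TPM in X2-PDPN and 45.3, 42.0, 42.7 and 41.2 TPM in CCR7-PDPN. Replicate 1 of CCR7 lay with the X2 libraries while the other 3 stood above them, and the X2-PDPN libraries lay below all others of their batch. CCR7 against X2 gave a log2 fold change of 0.26 (SE 0.06, adjusted p = 0.0032) and CCR7-PDPN against CCR7 gave -0.33 (SE 0.06, adjusted p = 5.7e-04). In batch 2, X2-PDPN against X2 gave -0.29 (SE 0.04, adjusted p = 9.6e-09) and CCR7-PDPN against X2-PDPN gave 0.20 (SE 0.04, adjusted p = 2.3e-05). CCR7-PDPN against X2 gave -0.079 (SE 0.06, adjusted p = 0.30) in batch 1 and -0.098 (SE 0.04, adjusted p = 0.023) in batch 2, where leaving out CCR7-PDPN replicate 2, 3 or 4 or X2 replicate 2 or 4 raised the adjusted p to between 0.052 and 0.096.

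The 49 tested genes within 5 Mb of Pdgfrb also had lower medians with PDPN. Their median log2 fold change was -0.28 for CCR7-PDPN against CCR7, -0.22 for X2-PDPN against X2 and -0.21 and -0.17 for CCR7-PDPN against X2 in batches 1 and 2. With this median subtracted, Pdgfrb was at -0.050 for CCR7-PDPN against CCR7, -0.074 for X2-PDPN against X2, and 0.13 and 0.076 for CCR7-PDPN against X2. For CCR7 against X2 the neighbours' median was 0.042 and for CCR7-PDPN against X2-PDPN it was 0.021. The part of the neighbouring genes in the Pdgfrb values was not tested.

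Counted over the members, few differences reached a doubling. Of the 10 members, 5 passed the filter on low counts in each batch. In the 6 comparisons Fgfr3 was the only member past both thresholds. It passed that filter through libraries without Ccr7, where it was high, so the counts past both thresholds are a description. In CCR7 against X2, 1 of the 5 passed both thresholds (Fgfr3, lower), beside 6.48% of 13261 genes, and 3 passed the adjusted p alone, beside 49.3%. In CCR7-PDPN against CCR7, 0 passed both, with edgeR and with DESeq2, beside 3.27%, while 4 had an unadjusted p under 0.05 and 3 passed the adjusted p, beside 41.6%. In CCR7-PDPN against X2 of batch 1, 1 passed both, beside 9.45%, and 3 passed the adjusted p, beside 60.9%.

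In X2-PDPN against X2, 0 passed both thresholds, with edgeR and with DESeq2, beside 5.05% of 13314 genes, while 4 had an unadjusted p under 0.05 and 4 passed the adjusted p, beside 56.8%. In CCR7-PDPN against X2-PDPN, 1 passed both, beside 9.16%, and 4 passed the adjusted p, beside 63.2%. In CCR7-PDPN against X2 of batch 2, 1 passed both, beside 9.63%, and 4 passed the adjusted p, beside 64.8%. With so many genes past the adjusted p in technical replicates, passing it did not set these genes apart. The Fgfr1 groups did not overlap in any of the 6 comparisons; within a single comparison 34.2% to 58.7% of the genes tested did not, and the share apart in all 6 was not computed.

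**Figure D3:**
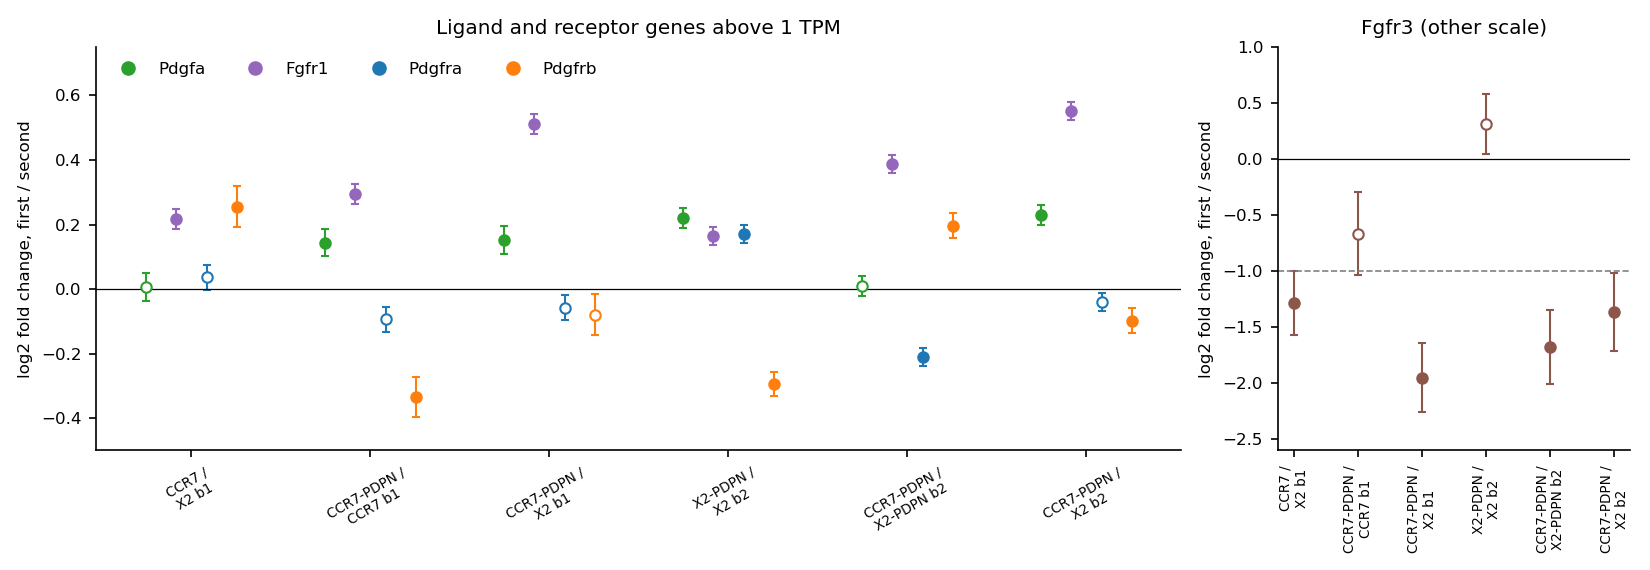
Log2 fold change (first group over second, as named under each axis; b1 and b2 are the batches) with its standard error for Pdgfa, Fgfr1, Pdgfra and Pdgfrb on the left and Fgfr3 on a wider scale on the right. Filled points have an adjusted p under 0.05, and the dashed line marks -1. Fgfr1 lies above 0 in all 6 comparisons and reaches 0.55, and Fgfr3 reaches -1.95.

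The mix of receptors shifted towards Fgfr1 in CCR7-PDPN. Of the summed TPM of the 4 receptors with rows in both batches, Fgfr1 held 44.0% ± 0.422 and 44.0% ± 0.75 in X2, 45.4% ± 2.56 in CCR7, 47.0% ± 1.11 in X2-PDPN and 54.0% ± 0.55 and 54.6% ± 0.471 in CCR7-PDPN (SD, n = 4). Every CCR7-PDPN library was at 53.3% or above, and every other library was at 49.2% or below. Pdgfrb held 24.8% and 24.4% in X2, 26.3% in CCR7, 20.2% and 19.4% in CCR7-PDPN and 19.0% in X2-PDPN. The ratio of Pdgfra to Pdgfrb was 1.25 and 1.29 in X2, 1.08 in CCR7, 1.27 and 1.34 in CCR7-PDPN and 1.78 in X2-PDPN, where its 4 libraries (1.72 to 1.83) stood above all others. Fgfr3 held 0.0515% to 0.282% of the sum.

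**Figure D4:**
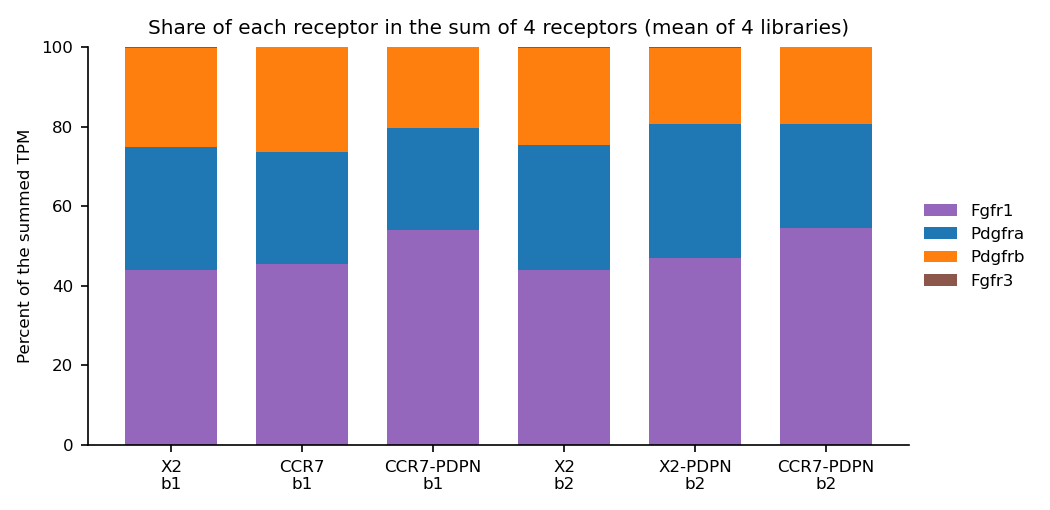
Share in percent of each receptor in the summed TPM of Fgfr1, Pdgfra, Pdgfrb and Fgfr3, as the mean of 4 libraries in each group (b1 and b2 are the batches). Fgfr1 takes 54.0% and 54.6% in CCR7-PDPN and 44.0% to 47.0% in the other groups, and Fgfr3 is too thin to see.

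Whether the difference with the PDPN sort depended on Ccr7 was tested as the CCR7-PDPN minus CCR7 difference of batch 1 less the X2-PDPN minus X2 difference of batch 2, over 13690 genes of all 24 libraries. The 2 differences come from different batches, so a batch effect on the PDPN difference cannot be told apart from an effect of Ccr7. Pdgfra, the PDGF-A receptor, gave -0.26 (SE 0.05, adjusted p = 2.6e-05), from a log2 fold change with the PDPN sort of 0.17 in vector cells and of -0.094 in Ccr7-transduced cells. Fgfr1 gave 0.13 (SE 0.04, adjusted p = 0.0084), and -0.11 once the median of its neighbours was subtracted, so its sign turned with that subtraction. Fgfr3 gave -0.97 (SE 0.51, adjusted p = 0.13), and without X2 replicate 3 of batch 2 -1.37 (adjusted p = 0.024). Pdgfa gave -0.073 (SE 0.05, adjusted p = 0.29) and Pdgfrb -0.036 (SE 0.08, adjusted p = 0.76). Of the 5 members, 0 passed both thresholds with edgeR or DESeq2, beside 5.44% of all genes, 2 had an unadjusted p under 0.05, and the same number passed the adjusted p, beside 40.8%.

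CCR7-PDPN against X2 was sequenced in both batches. Its log2 fold change in batch 1 minus that in batch 2 was -0.040 (SE 0.04) for Fgfr1, -0.078 (SE 0.05) for Pdgfa, -0.017 (SE 0.05) for Pdgfra, 0.019 (SE 0.08) for Pdgfrb and -0.58 (SE 0.53) for Fgfr3, each with an adjusted p of 1.00. Fgfr3 had the largest SE of the 5 genes, so its value is the least precise.

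The other 17 PDGF and FGF ligands were described as a fixed list. Only Fgf21, an endocrine FGF better known from liver, reached 1 TPM, and the other 16, Pdgfd, Fgf1 and Fgf10 among them, stayed below it in the 3 groups of batch 1 and had no row in batch 2. Fgf21 averaged 24.5 TPM in X2, 48.0 in CCR7 and 54.5 TPM in CCR7-PDPN of batch 1. In batch 2 the means were 23.3 in X2, 23.8 in X2-PDPN and 54.3 TPM in CCR7-PDPN. It rose in CCR7-PDPN against X2 in batch 1 (log2 fold change 1.18, adjusted p = 3.6e-06) and batch 2 (1.23, adjusted p = 7.7e-11) and in CCR7-PDPN against X2-PDPN (1.22, adjusted p = 8.4e-11). CCR7 against X2 gave 0.96 (adjusted p = 5.0e-05), and X2-PDPN against X2 gave 0.011 (adjusted p = 0.95). Klb, the co-receptor that FGF21 needs, had at most 2 counts and Kl at most 4 in any batch 1 library, and neither had a row in batch 2.

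Of 15 further receptors and co-receptors, 7 were tested, and the heparan sulfate carriers Sdc4 (493 to 642 TPM over group means), Gpc1 (246 to 298 TPM) and Sdc1 (178 to 251 TPM) were the highest. Fgfr4 had at most 3 counts in any batch 1 library and no row in batch 2, which leaves Fgfr1 as the only signalling FGF receptor above 1 TPM in batch 1. Of the 7, 1 passed both thresholds in X2-PDPN against X2 (Cspg4, higher), beside 5.05% of all genes tested, 2 in CCR7-PDPN against X2-PDPN (Sdc3 higher and Cspg4 lower), beside 9.16%, and 1 in CCR7-PDPN against X2 of batch 2 (Sdc3, higher), beside 9.63%. In the 3 comparisons of batch 1, 0 did with edgeR or DESeq2, beside 6.48%, 3.27% and 9.45%, although 6, 5 and 5 had an unadjusted p under 0.05. The medians of the 7 lay between -0.11 and 0.20 in the 6 comparisons, beside -0.0033 to 0.0033 over all genes tested. Cspg4, a proteoglycan that binds PDGF-A and FGF2, averaged 0.718 TPM in X2-PDPN against 0.298 to 0.339 TPM in the other 5 groups. Its log2 fold change was 1.22 (adjusted p = 6.4e-07) for X2-PDPN against X2 and -1.14 (adjusted p = 1.7e-06) for CCR7-PDPN against X2-PDPN, the latter -0.98 without CCR7-PDPN replicate 1. The heparan sulfate carrier Sdc3 averaged 1.20 and 1.05 TPM in CCR7 and CCR7-PDPN against 0.638 TPM in X2 of batch 1, and 1.01 TPM in CCR7-PDPN against 0.464 in X2 and 0.367 in X2-PDPN of batch 2, where CCR7-PDPN against X2 gave 0.98 without CCR7-PDPN replicate 4.

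Proteases and other proteins that release or bind the ligands formed the next list. Of 17 genes 13 were tested, and all that passed both thresholds were lower. They were 2 in CCR7 against X2 (beside 6.48% of all genes tested in either direction), 1 in CCR7-PDPN against CCR7 (beside 3.27%), 2 in CCR7-PDPN against X2 in each batch (beside 9.45% and 9.63%) and 3 in CCR7-PDPN against X2-PDPN (beside 9.16%). In X2-PDPN against X2, 0 did with edgeR or DESeq2, beside 5.05%, while all 13 had an unadjusted and an adjusted p under 0.05, 7 higher and 6 lower, beside 56.8% past the adjusted p. The medians were -0.12, -0.15 and -0.35 in the 3 comparisons of batch 1, in the order CCR7 against X2, CCR7-PDPN against CCR7 and CCR7-PDPN against X2. In batch 2 they were 0.079 for X2-PDPN against X2, -0.58 for CCR7-PDPN against X2-PDPN and -0.20 for CCR7-PDPN against X2.

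Plat, the tissue plasminogen activator that cleaves PDGF-C, was lower in steps: 16.7 TPM in X2, 5.12 in CCR7 and 2.62 TPM in CCR7-PDPN of batch 1. In batch 2 it averaged 16.8 in X2, 9.67 in X2-PDPN and 2.46 TPM in CCR7-PDPN. Its log2 fold change was -1.71 (adjusted p = 2.0e-14) for CCR7 against X2, -2.65 (adjusted p = 4.8e-17) and -2.76 (adjusted p = 7.7e-32) for CCR7-PDPN against X2 and -1.95 (adjusted p = 5.6e-25) for CCR7-PDPN against X2-PDPN. The smaller steps, -0.94 for CCR7-PDPN against CCR7 and -0.81 for X2-PDPN against X2, passed the adjusted p only. Neighbouring genes were examined for the members only, so their part in the values of Plat and the other listed genes was not tested. Plau, the urokinase that cleaves PDGF-D, was at 47.0 and 48.7 TPM in X2, 41.6 in X2-PDPN and 20.2 to 23.4 TPM in the Ccr7-transduced groups, with log2 fold changes of -1.22 for CCR7 against X2 and -1.10 and -1.03 for CCR7-PDPN against X2, the last -0.99 without CCR7-PDPN replicate 1 of batch 2. The transcripts of both substrates were at the limit of detection, Pdgfc at up to 2 counts and Pdgfd at 0 counts in the batch 1 libraries.

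St14, the protease matriptase, was at 1.34 TPM in CCR7 and 1.48 TPM in X2-PDPN and at 0.610 to 0.782 TPM in X2 and CCR7-PDPN of either batch. It was lower in CCR7-PDPN than in CCR7 (log2 fold change -1.11, adjusted p = 5.3e-06) and than in X2-PDPN (-1.13, adjusted p = 3.0e-09), and the test of the PDPN difference with and without Ccr7, in which batch and Ccr7 cannot be told apart, gave -2.06 (SE 0.18, adjusted p = 1.6e-11). Lrp1, an endocytic receptor that binds PDGFRβ and its ligand, was at 121 TPM in X2-PDPN against 66.8 in X2 and 47.0 TPM in CCR7-PDPN of batch 2, with -1.34 (adjusted p = 4.0e-06) for CCR7-PDPN against X2-PDPN. In batch 1 it was at 67.3, 68.3 and 46.6 TPM in X2, CCR7 and CCR7-PDPN, with adjusted p from 0.11 to 0.97. As for Pdgfra, the X2-PDPN libraries of Lrp1 lay above all others of batch 2.

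Adaptors and signal relay genes carry the signal from the receptors to ERK, AKT and STAT3, and all 23 were above 1 TPM in some group. Of the 23, 1 passed both thresholds in CCR7-PDPN against X2-PDPN, beside 9.16% of all genes tested, and 0 in the other 5 comparisons with edgeR or DESeq2, beside 3.27% to 9.63%, where 9, 15, 18, 12 and 18 had an unadjusted p under 0.05, in the order of the panels of the plot of pathway genes. The gene was Frs3, an FGF receptor docking protein, at 6.08 TPM in X2-PDPN and 2.74 TPM in CCR7-PDPN (log2 fold change -1.12, adjusted p = 7.1e-11). It was at 5.52 and 4.75 TPM in the X2 groups and 2.86 TPM in CCR7, so the groups without Ccr7 were above those with it, as for Fgfr3. Frs2, the main docking protein of FGFR1, stayed within 36.1 to 39.2 TPM over all 6 group means. The medians of the 23 lay between -0.0052 and 0.13.

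The listed feedback inhibitors dampen signalling from the receptors, and only a part of them is induced by ERK signalling. Of the 15 listed, 14 were matched. Of 13 tested, 0 passed both thresholds in any of the 6 comparisons with edgeR or DESeq2, beside 3.27% to 9.63% of all genes tested, while 6 to 13 had an unadjusted p under 0.05. Their medians lay between -0.028 and 0.16. Dusp4, an ERK phosphatase and the highest of them, was at 341 and 343 TPM in X2, 278 in CCR7, 292 in X2-PDPN and 269.9 and 281 TPM in CCR7-PDPN. Its log2 fold change was -0.30 (adjusted p = 8.4e-07) for CCR7 against X2 and -0.24 (adjusted p = 7.3e-10) for X2-PDPN against X2. In the latter comparison 7 of the 13 were higher and 4 lower by the adjusted p, beside 56.8% of all genes tested, with a median of 0.16.

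Of 15 transcription factors and targets downstream of the receptors 14 were tested, and those past both thresholds were mostly immediate early genes at a few TPM. In X2-PDPN against X2, 2 rose, beside 5.05% of all genes past both thresholds: Egr3 from 1.25 to 4.83 TPM (log2 fold change 1.93, adjusted p = 1.8e-16) and Egr1 from 1.45 to 4.70 TPM (1.69, adjusted p = 4.7e-15). In CCR7-PDPN against X2-PDPN, 3 fell and 1 rose, beside 9.16%. Those that fell were Fos (-1.92, adjusted p = 4.9e-09), Egr3 (-1.83, adjusted p = 4.7e-16) and Egr1 (-1.45, adjusted p = 1.3e-13), and Etv1 rose. The PDPN difference of Egr3 was 0.52 (adjusted p = 0.035) with Ccr7, and the test of the difference gave -1.40 (SE 0.24, adjusted p = 1.1e-05). That of Egr1 was 0.90 (adjusted p = 1.5e-04) with Ccr7, and the test of the difference gave -0.789. In CCR7 against X2, Egr1 was at -0.71 (adjusted p = 0.0011) and Egr3 at -0.46 (adjusted p = 0.060). Etv1, an ETS factor, followed the order of Fgfr1 instead: 3.76, 5.93 and 9.98 TPM in X2, CCR7 and CCR7-PDPN of batch 1 and 3.71, 4.49 and 10.3 TPM in X2, X2-PDPN and CCR7-PDPN of batch 2. It rose in CCR7-PDPN against X2 in batch 1 (1.43, adjusted p = 4.1e-16) and batch 2 (1.49, adjusted p = 1.7e-26) and against X2-PDPN (1.22, adjusted p = 7.9e-24), the first beside 9.45% and the second beside 9.63% of all genes. The other ETS factors listed stood at higher levels. Etv4 (199 to 237 TPM over group means) was highest in CCR7-PDPN of batch 2. Etv5 (74.8 to 100.2 TPM) was highest in X2-PDPN, unlike Fgfr1. Fos fell in CCR7-PDPN against X2 of batch 2 (-1.62, adjusted p = 5.1e-07), but batch 1 gave -0.51 (adjusted p = 0.13). In batch 2 its libraries held 7 to 15 counts in CCR7-PDPN, 25 to 42 in X2 and 41 to 47 in X2-PDPN. Fos thus passed the filter on low counts there through the groups where it was high, so its lower values are a description. In CCR7 against X2 and in CCR7-PDPN against CCR7, 0 of the 14 passed both with edgeR or DESeq2, beside 6.48% and 3.27%, and 7 and 10 had an unadjusted p under 0.05. The medians lay between -0.15 and 0.29.

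**Figure D5:**
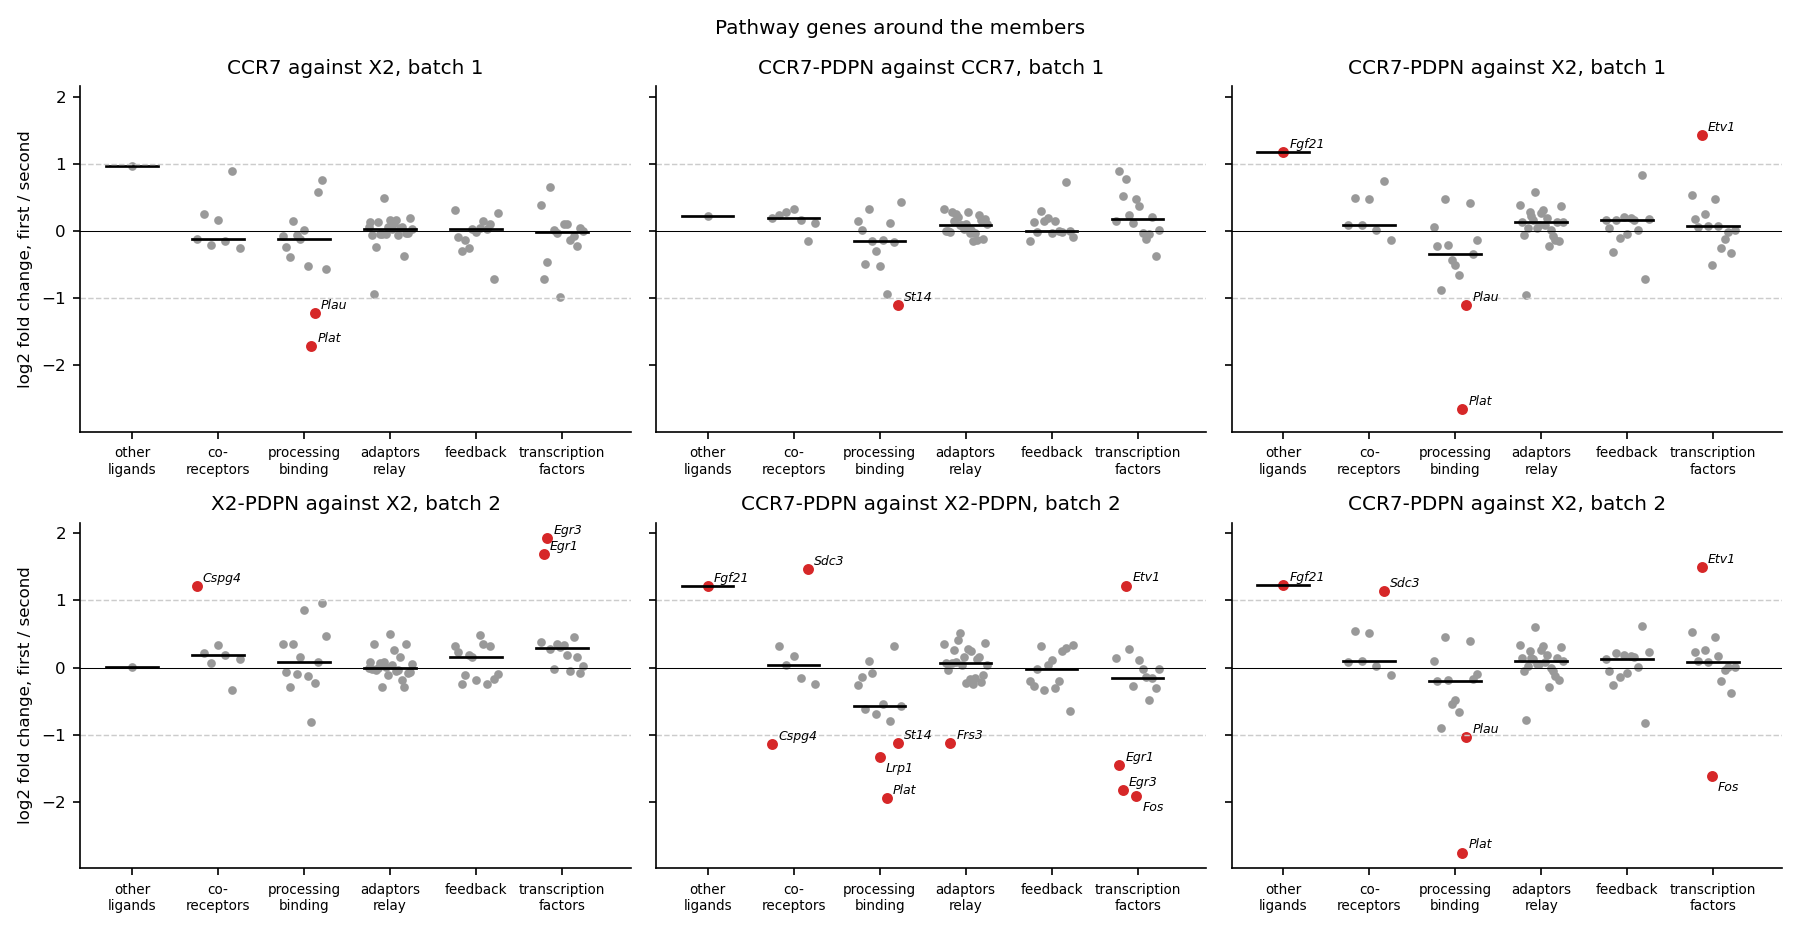
Log2 fold change (first group over second, named above each panel) of every tested gene of the 6 fixed pathway lists, with the median of each list as a black bar and dashed lines at -1 and 1. Red points with names passed both thresholds. Plat is the lowest point, at -2.76 in CCR7-PDPN against X2 of batch 2, and no red point appears among the feedback inhibitors in any of the 6 panels.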

How the data were processed

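Polyadenylated RNA of 4 EO771 derivatives was sequenced from stranded libraries in single-end mode, in 24 libraries and 2 batches. The authors mapped the reads to GRCm38 (mm10) and deposited the raw counts of each Ensembl gene, neither normalized nor pooled. The aligner and the strand setting of the counting are not given in the sources used here. The batch 2 table had been filtered by a rule not given there either, and it lacks 682 genes that reach 10 counts in a batch 1 library. Members and gene lists were chosen with earlier results of these data known.

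Counts were tested with edgeR 4.0.16 in R 4.3.3 (filterByExpr, TMM scaling, a robust quasi-likelihood fit of the 3 groups in a batch, p-values adjusted by Benjamini-Hochberg over 13261 or 13314 genes). A gene passed both thresholds where the adjusted p was under 0.05 and the log2 fold change was above 1 in size. SE was the size of the log2 fold change divided by the root of F. TPM used the exonic lengths in the tables. Named were all 10 members and, of each of 6 pathway lists, up to 4 genes past both thresholds (if none, the highest), and, chosen after their values were seen, the listed genes given by their level only. The fits were tested on simulated data. Alternatives were upper-quartile and RLE factors, DESeq2 1.42.0, a replicate block, other filters and sets of libraries, subtraction of the median of genes within 5 Mb, no fold threshold, and each library left out. Figures were made with matplotlib 3.10.9.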

Additional observations from a re-analysis of the deposited data

Results flagged for a closer look

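In 45 groups of 4 libraries (a member in a derivative and batch), 5 had 1 library far from the other 3 by Dixon's test. Chance alone gives this in about 1 in 20 groups of normally distributed values, a rate that does not hold for genes with few counts. Fgfr1 was at 113 TPM in CCR7-PDPN replicate 4 of batch 1, below the other 3 libraries. Pdgfa was at 97.0 TPM in X2 replicate 3 of batch 1, also below the other 3. Pdgfb was at 0.277 TPM in CCR7 replicate 1 of batch 1, on 10 counts. Fgfr2 was at 0.0109 TPM in CCR7 replicate 3 and at 0.0113 TPM in CCR7-PDPN replicate 1 of batch 1, each the only library of its group with a count, and that count was 1. A group with a count in only 1 library is always flagged by this test.

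The difference with the PDPN sort differed between Ccr7-transduced cells (batch 1) and vector cells (batch 2), by edgeR's quasi-likelihood test of the difference itself, for 10 genes named here. On the log2 scale the difference of the differences was -0.261 for Pdgfra (adjusted p = 2.6e-05), 0.133 for Fgfr1 (adjusted p = 0.0084), -1.37 for Lrp1 (adjusted p = 5.7e-04), -1.40 for Egr3 (adjusted p = 1.1e-05), -2.06 for St14 (adjusted p = 1.6e-11) and -1.01 for Cspg4 (adjusted p = 0.0045), the last between -1.22 and -0.88 with 1 library left out. It was smaller than a doubling for Etv1 (0.511, adjusted p = 1.5e-06), Dusp4 (0.227, adjusted p = 1.6e-04), Plau (0.357, adjusted p = 4.8e-04) and Egr1 (-0.789, adjusted p = 0.0033). Batch and Ccr7 cannot be told apart in this test.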

How the results depend on the processing

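Without a fold threshold, 3, 3 and 3 members passed in the batch 1 comparisons (CCR7 against X2, CCR7-PDPN against CCR7, CCR7-PDPN against X2), 4, 4 and 4 in those of batch 2 and 2 in the test of the PDPN difference with and without Ccr7. At 1 CPM in 4 libraries, 0 passed in CCR7 against X2 and in CCR7-PDPN against X2 of batch 1, since Fgfr3 was no longer tested. Leaving out 1 library at a time gave 0 to 1 members in CCR7-PDPN against X2 of batch 2 and 0 to 1 in the test of the difference, both through X2 replicate 3 of batch 2 and Fgfr3. DESeq2 and RLE factors left the direction and the side of the threshold of all 40 member values as they were. Apart from the subtraction of neighbouring genes, signs turned only for small values that had not passed the adjusted p: Pdgfa in CCR7-PDPN against X2-PDPN (-0.0094 with upper-quartile factors, -0.0067 with 24 libraries and a batch term, -0.0068 to 0.037 with 1 library left out), Pdgfa (-0.036 to 0.049) and Pdgfra (-0.0093 to 0.058) in CCR7 against X2, and the difference between batches of Pdgfra (-0.028 to 0.0066) and Pdgfrb (-0.0071 to 0.052). With the median of genes within 5 Mb subtracted, Pdgfrb turned to 0.13 and 0.076 in CCR7-PDPN against X2 of batches 1 and 2. The value of Pdgfrb in batch 2 had passed the adjusted p. Fgfr1 turned to -0.11 in the test of the difference, where it had passed the adjusted p as well. Pdgfra turned to 0.011 in CCR7-PDPN against X2 of batch 2 and Pdgfa to -0.047 in CCR7-PDPN against X2-PDPN. Replicate numbers did not pair the libraries: deviations of same-numbered libraries correlated at -0.12 to 0.11 over 24 pairs, and 6 of 24 correlated best with their own number. A block for the replicate number left all 40 member values on their side of the threshold. Depth limits Pdgfb, Pdgfc, Fgf2, Fgf7, Fgfr2 and Fgfr3, and the 4 libraries of a group do not show the spread between separately made populations.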
